A study of Mus musculus with 21 samples.

Results

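The genes described here were 30 genes of cholesterol synthesis and sterol regulation, measured by RNA sequencing in the forebrains of 21 mice. They were chosen by symbol, with no measured value in the rule, and each symbol was matched to 1 Ensembl identifier of the 55401 in the count table. All 30 were also in the FPKM table and all 30 passed the filter on low counts. They comprised 18 enzymes of the synthesis route, 5 genes of SREBP control, 1 sterol carrier, 3 genes of sterol storage and oxysterol formation, 2 LXR receptors and 1 LXR target.

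The parental groups E2H, E3H and E4H held 3 mice each, homozygous for human APOE2, APOE3 or APOE4 in place of mouse Apoe, on a C57BL6 background and 9 to 10 months old. Mice of the same APOE genotypes that were also heterozygous for the PS19 transgene, human tau with the P301S mutation under the mouse prion promoter, formed PS/E2H, PS/E3H and PS/E4H with 4 mice in each. These were taken when both hindlimbs were paralyzed. All 21 mice thus carried human APOE, and none was wild type. The PS19 line came from a mixed B6/C3H background, so the transgene, paralysis, age at death and background cannot be told apart in any comparison of PS19 with parental mice. Most mice were male. The E4H and PS/E2H groups each held 1 female and the PS/E4H group held 2, but the labels do not say which mice these were, so sex could not enter a fit.

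Cells build cholesterol from acetyl-CoA through HMG-CoA, mevalonate, farnesyl diphosphate, squalene and lanosterol, and the brain makes nearly all of its own because lipoproteins do not cross from the blood. SREBP2, the product of Srebf2, switches on the enzymes of this route when sterols run low. SCAP carries SREBPs to the Golgi for activation, and the INSIG proteins hold SCAP back when sterols are plentiful. When oxysterols accumulate, the LXR receptors switch on genes of cholesterol export, and among their targets is Srebf1. In the adult brain astrocytes and oligodendrocytes are major sites of synthesis, neurons take up cholesterol carried by APOE, and neurons turn surplus cholesterol into an oxysterol that leaves the brain.

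Total counts ran from 59265459 to 75932183 per mouse with a median of 63751715, and each mouse had a median correlation of 0.991 to 0.996 with the other mice of its group. Levels are given as CPM, the count of a gene scaled to library size with edgeR's TMM factors. The mouse gene Apoe lay between 9.83 and 16.4 CPM over all 21 mice, and the mouse gene Mapt ran from 419 to 510 CPM in parental and from 417 to 496 CPM in PS19 mice. The human APOE and human tau transcripts were not measured here, so these values do not check the genotypes. P-values were adjusted over all genes tested by the Benjamini-Hochberg method and come from edgeR's quasi-likelihood test unless another tool is named. A gene was called at an adjusted p under 0.05, and n was 9 parental and 12 PS19 mice in the pooled tau comparison.

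Promoter windows were matched in the RefSeq table for 26 of the 30 genes and covered 250 bases before to 50 bases after each start (GRCm38.p6). Fdps, Fdft1, Sqle and Stard4 had no entry. Stretches of 180 bases directly upstream of the start are shown for 4 enzymes that fell in PS19 mice and whose stretch overlapped no annotated exon of the gene. Capitals mark matches to the letters CCAAT (the NF-Y box), TCACNCCAC (a sterol response element core) or CACGTG (an E-box) on either strand, so that ATTGG is a CCAAT on the opposite strand.
Hmgcs1, chr13:119690171-119690350, plus strand: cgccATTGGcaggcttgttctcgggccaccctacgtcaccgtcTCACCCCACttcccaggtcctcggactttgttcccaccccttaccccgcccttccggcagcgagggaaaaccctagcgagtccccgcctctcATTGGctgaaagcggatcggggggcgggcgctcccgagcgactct
Mvd, chr8:122443423-122443602, minus strand: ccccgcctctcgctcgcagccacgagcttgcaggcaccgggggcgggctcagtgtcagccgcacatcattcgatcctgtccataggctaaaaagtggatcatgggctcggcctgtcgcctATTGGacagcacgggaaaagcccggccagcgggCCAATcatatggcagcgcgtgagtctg
Nsdhl, chrX:72918341-72918520, plus strand: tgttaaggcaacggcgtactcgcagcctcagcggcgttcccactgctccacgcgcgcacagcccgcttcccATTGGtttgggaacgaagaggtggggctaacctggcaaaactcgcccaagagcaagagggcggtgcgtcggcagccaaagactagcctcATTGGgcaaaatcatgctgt
Sc5d, chr9:42264301-42264480, minus strand: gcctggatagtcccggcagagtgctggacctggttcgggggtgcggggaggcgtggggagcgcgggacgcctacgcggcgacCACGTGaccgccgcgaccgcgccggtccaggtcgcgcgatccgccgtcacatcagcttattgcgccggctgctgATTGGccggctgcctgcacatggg

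Over the whole windows, CCAAT was present in 21 of the 26 matched genes, or 80.8%, against 41.1% of the 27025 genes in the table. The Sp1 box GGGCGG, not capitalised above, was present in 22 of the 26, or 84.6%, against 38.2% of all genes. CACGTG was present in 5, or 19.2%, against 8.09% of all genes. The core TCACNCCAC was found in Hmgcs1 alone among the 26, or 3.85%, against 1.44% of all genes. Of the 15 synthesis enzymes with a window, 14 held CCAAT and 14 held GGGCGG. Base composition was not matched, and a match of letters is not a binding site.

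In PS19 mice most enzymes of the cholesterol route were lower and the control genes split. Pooled over the 3 APOE lines, 22 of the 30 genes were called, 19 of them lower and 3 higher, while over all 22863 genes tested 21% were called, 9.63% lower and 11.4% higher. The lower genes were 15 of the 18 synthesis enzymes together with Insig1, Srebf2, Stard4 and Cyp46a1. The higher genes were Srebf1, Ch25h and Mylip. The median log2 difference was -0.35 over the 30 genes and -0.01 over all genes tested. Most differences were modest in size. Ch25h was the single gene of the 30 that was called with a change of at least 2-fold, a combination that held for 2.6% of all genes tested. Because these were samples of whole forebrain, fewer cells of a type and less RNA per cell cannot be told apart in any of these values.

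**Figure D1:**
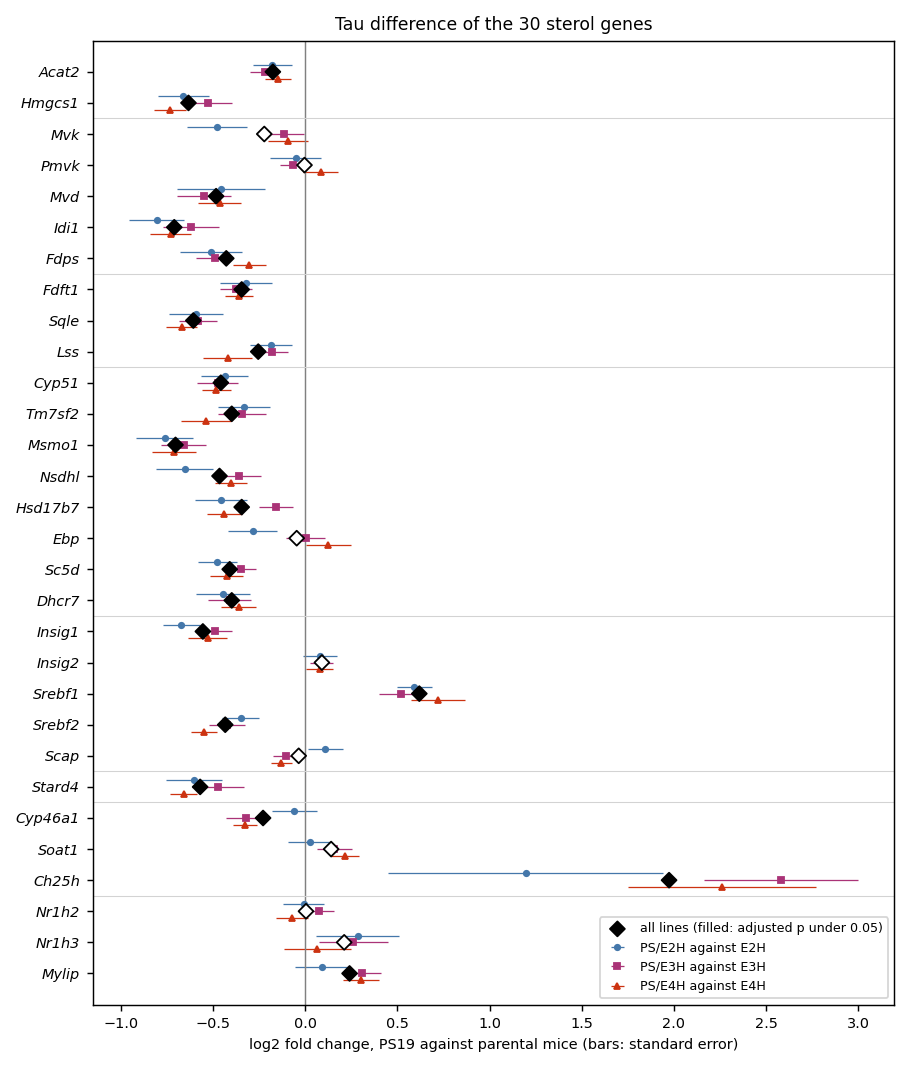
Log2 fold change of each of the 30 genes in PS19 against parental mice, with the standard error as a bar, pooled over the APOE lines (diamonds, filled where the adjusted p was under 0.05) and within each line (small symbols). The synthesis enzymes in the upper part of the plot lie mostly left of 0, Srebf1 and Ch25h lie to the right, and Ch25h has the widest bars.

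The 9 parental and 12 PS19 mice did not overlap at all in 7 of the 30 genes. Idi1, Sqle, Msmo1, Nsdhl, Sc5d and Insig1 were lower in every PS19 mouse than in every parental mouse, a separation seen in 0.153% of all genes tested. Srebf1 was higher in every PS19 mouse, a separation seen in 1.4% of all genes tested. The summed level of the 18 enzymes ran from 950 to 1137 CPM in parental mice and from 658 to 911 CPM in PS19 mice, so the ranges of this sum did not meet.

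The route starts with Acat2, which joins acetyl-CoA units, and Hmgcs1, which makes HMG-CoA. Hmgcs1 (chr13:119690379-119708260 in the GENCODE M21 annotation of GRCm38) measured 207, 240 and 253 CPM in E2H, 245, 249 and 277 CPM in E3H, and 254, 291 and 254 CPM in E4H. In PS/E2H it measured 146, 171, 162 and 111 CPM, in PS/E3H 224, 193, 156 and 147 CPM, and in PS/E4H 164, 166, 138 and 171 CPM. A single PS19 mouse, PS/E3H replicate 1, reached the parental range, and the lowest value was that of PS/E2H replicate 4. Hmgcs1 fell by 35.6% in the pooled fit (log2 fold change -0.63 ± 0.08 SE, adjusted p = 3.36e-06). Acat2 fell by 11.5% (log2 fold change -0.18 ± 0.05, adjusted p = 0.00944), with ranges of 49.7 to 62.2 CPM in parental and 42.8 to 58.8 CPM in PS19 mice that overlapped. Of the 50-base stretches of Acat2 transcripts, 39.1% also occur in the related gene Acat3, so its reads could be split between the genes.

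Between mevalonate and farnesyl diphosphate, 3 of 5 enzymes were lower. Idi1, the isomerase that prepares the building block for chain growth, measured 40.4, 39.9 and 43.1 CPM in E2H, 40.8, 42.7 and 48.1 CPM in E3H, and 42.8, 51.6 and 41.2 CPM in E4H. In the PS19 groups Idi1 measured 25.7, 25.3, 26.5 and 16.7 CPM with APOE2, 37.1, 30.1, 26.7 and 21.6 CPM with APOE3, and 25.3, 30.4, 23.7 and 29.5 CPM with APOE4. The highest PS19 mouse lay below the lowest parental mouse. Idi1 had the most negative log2 fold change of the 30 genes, -0.71 ± 0.09 SE (adjusted p = 3.66e-06), so that its level fell by 38.9%. Mvd, the decarboxylase that precedes it, fell by 28.5% (log2 fold change -0.48 ± 0.11, adjusted p = 0.00239). Fdps, which builds farnesyl diphosphate, fell by 25.7% (log2 fold change -0.43 ± 0.08, adjusted p = 0.000413). Stretches shared with pseudogenes and other loci made up 17.7% of Idi1 and 26.2% of Fdps.

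Neither kinase of this stretch passed the threshold. Mvk, mevalonate kinase, had a log2 fold change of -0.22 ± 0.08 (adjusted p = 0.056), with 14.4 to 24.3 CPM in parental and 12.8 to 18.6 CPM in PS19 mice. Pmvk, phosphomevalonate kinase, had a log2 fold change of 0.00 on rounding, with a standard error of 0.06 (adjusted p = 0.973).

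The steps from farnesyl diphosphate to lanosterol were lower at all 3 genes. Sqle, squalene epoxidase, a rate-limiting enzyme of the later route, measured 63.4, 74.0 and 80.6 CPM in E2H, 72.1, 75.8 and 77.9 CPM in E3H, and 67.2, 77.1 and 72.9 CPM in E4H. With the transgene it measured 51.0, 58.3, 46.7 and 37.0 CPM in PS/E2H, 55.6, 57.8, 47.8 and 42.2 CPM in PS/E3H, and 42.1, 48.0, 40.7 and 50.6 CPM in PS/E4H. No PS19 mouse reached the lowest parental value. Sqle fell by 34.4% (log2 fold change -0.61 ± 0.07 SE, adjusted p = 1.92e-06). Fdft1, squalene synthase, fell by 21.3% (log2 fold change -0.35 ± 0.06, adjusted p = 0.000351). Lss, lanosterol synthase, fell by 16.2% (log2 fold change -0.26 ± 0.07, adjusted p = 0.00837), and its ranges overlapped, with 1 of 12 PS19 mice below all parental mice.

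From lanosterol to cholesterol, 7 of 8 enzymes were lower. Msmo1, which removes methyl groups from the sterol ring, measured 84.8, 110 and 101 CPM in E2H, 101, 97.5 and 101 CPM in E3H, and 95.2, 105 and 94.3 CPM in E4H. Among PS19 mice Msmo1 measured 57.7, 69.3, 62.4 and 42.6 CPM with APOE2, 75.96, 70.4, 58.1 and 50.5 CPM with APOE3, and 53.1, 70.6, 49.1 and 67.1 CPM with APOE4. All 12 PS19 values lay below the lowest parental value. Msmo1 fell by 38.6% (log2 fold change -0.70 ± 0.08 SE, adjusted p = 2.57e-06). Nsdhl, which acts with Msmo1 in demethylation, ran from 25.1 to 31.7 CPM in parental and from 14.0 to 24.9 CPM in PS19 mice (log2 fold change -0.47 ± 0.08, adjusted p = 0.000139). Sc5d, a desaturase near the end of the route, ran from 70.7 to 82.7 CPM in parental and from 47.1 to 64.7 CPM in PS19 mice (log2 fold change -0.41 ± 0.05, adjusted p = 1.09e-05). Nsdhl and Sc5d thus also separated the 2 kinds of mice. Their upstream stretches, printed above, each hold at least 1 CCAAT. So do promoter windows of Mvk, Pmvk and Ebp, which were not called, and of Srebf1 and Mylip, which were higher.

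Cyp51, the lanosterol demethylase, fell by 27.2% (log2 fold change -0.46 ± 0.07, adjusted p = 2.63e-05), and 11 of 12 PS19 mice lay below all parental mice. Tm7sf2, a sterol reductase, fell by 24.2% (adjusted p = 0.000792), and so did Dhcr7, the reductase of the last step of one branch (adjusted p = 0.000346). Tm7sf2 overlaps Vps51 on the same strand and shares 9.87% of its 50-base stretches with it. Hsd17b7, a ketoreductase of the demethylation complex, fell by 21.3% (log2 fold change -0.35 ± 0.07, adjusted p = 0.000742). The exception was Ebp, the sterol isomerase, with a log2 fold change of -0.05 ± 0.08 (adjusted p = 0.737). Nsdhl and Ebp both lie on the X chromosome.

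**Figure D2:**
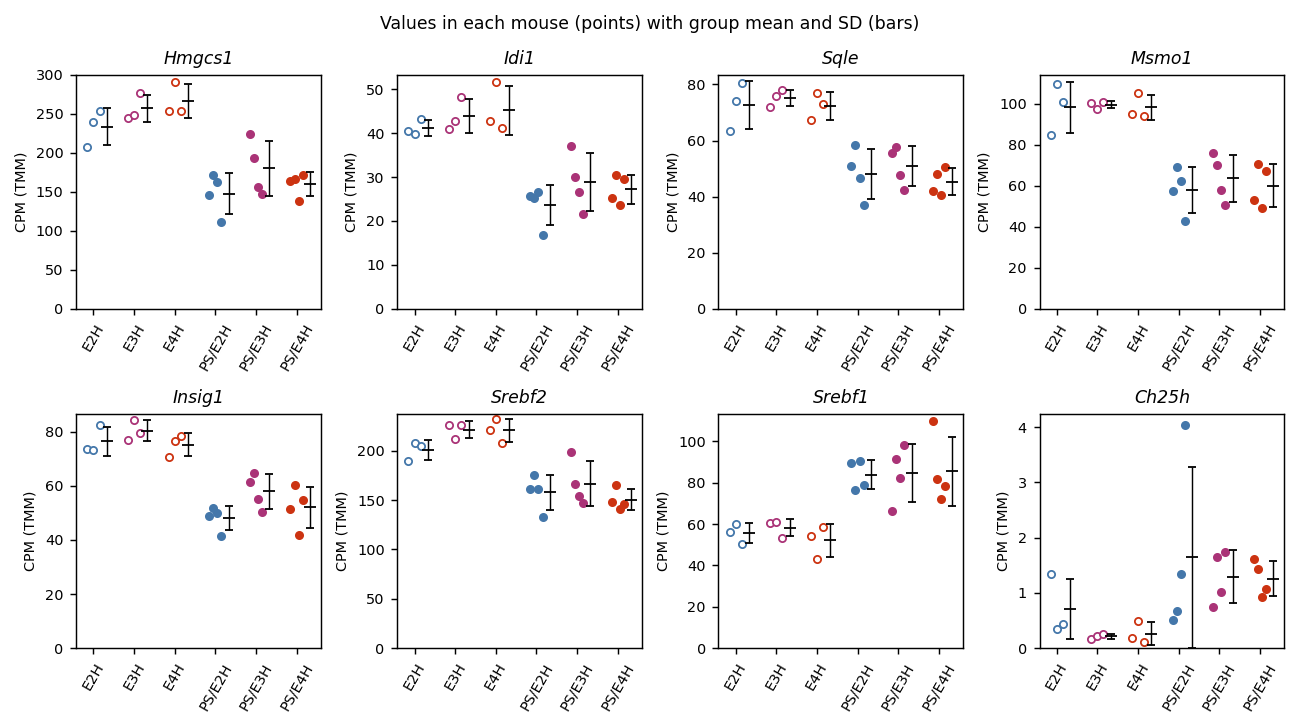
CPM of 8 genes in each mouse by group, open circles for parental and filled circles for PS19 mice, with the group mean and SD beside the points and each axis starting at 0. Hmgcs1, Idi1, Sqle, Msmo1, Insig1 and Srebf2 sit lower in the PS19 groups, Srebf1 sits higher, and Ch25h is low and scattered, up to 4.04 CPM in 1 PS/E2H mouse.

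Among the 5 genes of SREBP control, Insig1 and Srebf2 were lower, Srebf1 was higher, and Insig2 and Scap were not called. Insig1, the retention factor that is itself an SREBP target, measured 73.5, 73.3 and 82.6 CPM in E2H, 76.8, 84.5 and 79.6 CPM in E3H, and 70.6, 76.6 and 78.6 CPM in E4H. Its PS19 values were 48.8, 51.9, 49.998 and 41.5 CPM with APOE2, 61.6, 64.6, 55.3 and 50.2 CPM with APOE3, and 51.4, 60.2, 41.8 and 54.7 CPM with APOE4. The groups did not overlap. Of the 30 genes Insig1 had the lowest adjusted p, and its level fell by 32.0% (log2 fold change -0.56 ± 0.06 SE, adjusted p = 6.89e-07). Insig2, the related retention factor, had a log2 fold change of 0.09 ± 0.04 (adjusted p = 0.121), and 8 of 12 PS19 mice lay above all parental mice.

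The 2 SREBP genes moved in opposite directions. Srebf2, the main regulator of sterol synthesis, measured 189, 208 and 205 CPM in E2H, 227, 211 and 226 CPM in E3H, and 221, 232 and 208 CPM in E4H. In PS19 mice Srebf2 measured 161, 175, 162 and 133 CPM with APOE2, 199, 167, 154 and 147 CPM with APOE3, and 148, 166, 141 and 146 CPM with APOE4. PS/E3H replicate 1 was the single PS19 mouse that reached into the parental range. Srebf2 fell by 26.0% (log2 fold change -0.43 ± 0.06 SE, adjusted p = 6.37e-06).

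Srebf1, whose product drives fatty acid synthesis and which is also an LXR target, measured 56.3, 59.9 and 50.4 CPM in E2H, 60.6, 60.8 and 53.4 CPM in E3H, and 54.4, 43.1 and 58.6 CPM in E4H. With the transgene it measured 89.4, 76.6, 90.5 and 78.9 CPM in PS/E2H, 66.3, 91.5, 82.4 and 98.3 CPM in PS/E3H, and 110, 81.6, 72.2 and 78.3 CPM in PS/E4H. Every PS19 mouse lay above every parental mouse. Srebf1 rose 1.54-fold (log2 fold change 0.62 ± 0.08 SE, adjusted p = 5.78e-06). The counts do not separate the 2 protein forms encoded by Srebf1. Scap, the escort protein of both SREBPs, had a log2 fold change of -0.04 ± 0.05 (adjusted p = 0.649).

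Stard4, a soluble carrier that moves cholesterol between membranes, ran from 30.1 to 41.2 CPM in parental and from 17.2 to 33.03 CPM in PS19 mice. It fell by 32.7% (log2 fold change -0.57 ± 0.08 SE, adjusted p = 1.25e-05), and 10 of 12 PS19 mice lay below all parental mice. Cyp46a1, the neuronal hydroxylase that starts cholesterol export from the brain, fell by 14.7% (log2 fold change -0.23 ± 0.07, adjusted p = 0.0174). Its ranges, 157 to 201 CPM in parental and 127 to 195 CPM in PS19 mice, overlapped. Soat1, which esterifies cholesterol for storage, had a log2 fold change of 0.14 ± 0.06 (adjusted p = 0.0938).

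Ch25h, which makes an immune-active oxysterol from cholesterol and is expressed by activated macrophages and microglia, was the lowest of the 30 genes, with a mean of 0.257 FPKM in parental mice. It measured 1.34, 0.348 and 0.442 CPM in E2H, 0.163, 0.223 and 0.248 CPM in E3H, and 0.179, 0.492 and 0.109 CPM in E4H. In PS19 mice it measured 0.504, 0.672, 1.35 and 4.04 CPM with APOE2, 0.749, 1.65, 1.02 and 1.74 CPM with APOE3, and 1.62, 1.42, 0.920 and 1.06 CPM with APOE4. These CPM values rested on 8 to 101 counts per parental mouse and 35 to 242 counts per PS19 mouse. The E3H and E4H lines were separated from their PS19 counterparts, whereas E2H replicate 1 was high, with 6 of 12 PS19 mice above it. Pooled, Ch25h rose 3.93-fold (log2 fold change 1.97 ± 0.39 SE, adjusted p = 0.000736). Its log2 fold change ran from 1.73 to 2.31 when single mice were left out, and was 0.58 with limma on log2(FPKM + 1), a scale that compresses low values.

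The LXR receptor genes were not called. Nr1h2, which encodes the broadly expressed LXR beta, had a log2 fold change of 0.00 on rounding, with a standard error of 0.05 (adjusted p = 0.975). Nr1h3, which encodes LXR alpha and was read at 2.42 to 4.58 CPM, had a log2 fold change of 0.21 ± 0.11 (adjusted p = 0.181). Mylip, an LXR target that encodes a ubiquitin ligase of lipoprotein uptake, rose 1.18-fold (log2 fold change 0.24 ± 0.07, adjusted p = 0.0113), and 10 of 12 PS19 mice lay above all parental mice.

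**Figure D3:**
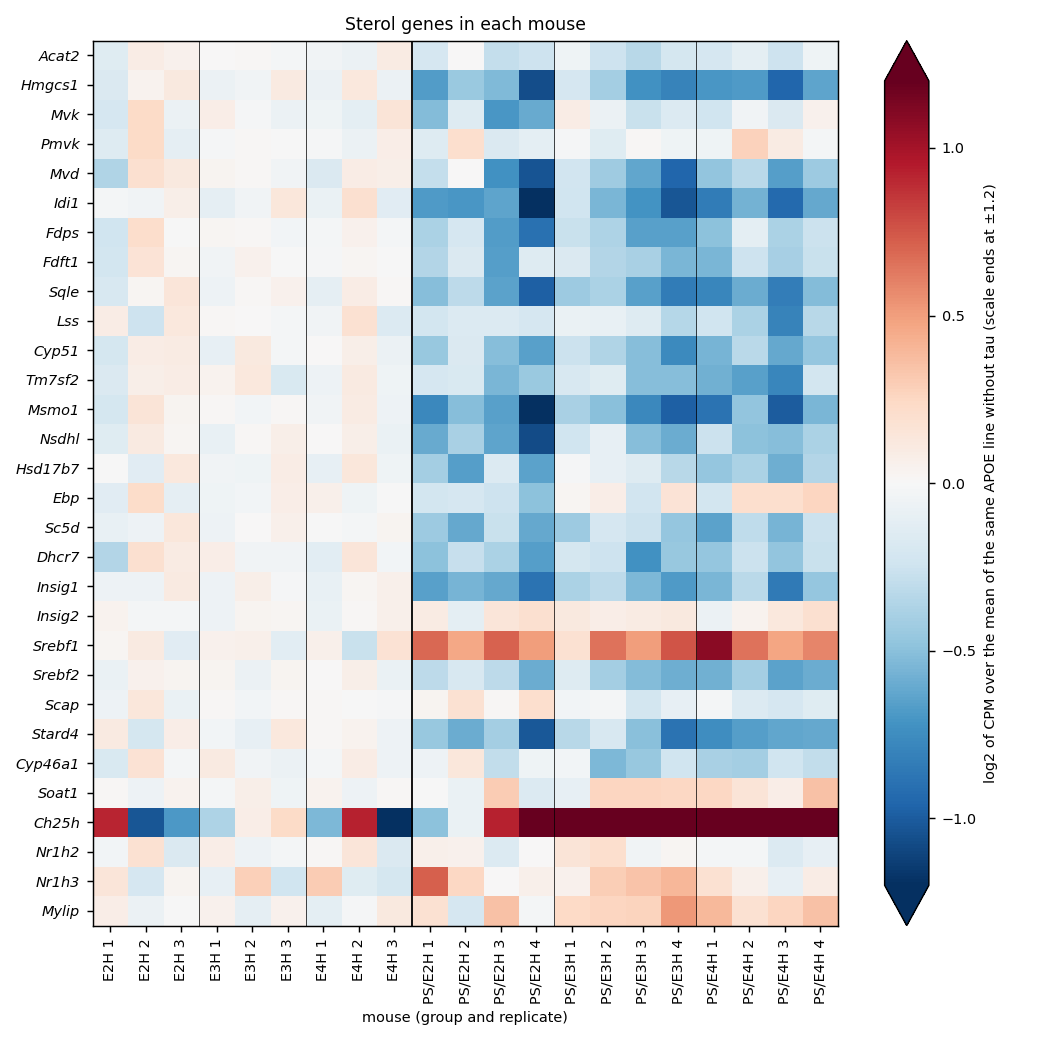
Log2 of CPM in each mouse over the mean of the parental mice of the same APOE line, for the 30 genes in rows and the 21 mice in columns (blue lower, red higher, scale ending at 1.2 in both directions). Blue fills most of the enzyme rows and the rows of Insig1, Srebf2 and Stard4 in the PS19 columns, red fills the Srebf1 row there, and PS/E2H replicate 4 is dark blue in several rows.

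Compared per length, the order of the levels in parental mice put Hmgcs1 and Cyp46a1 first, at 50.8 and 50.3 FPKM, followed by Srebf2 at 27.6 and Fdft1 at 27.1 FPKM. The first pair differed by less than the spread between mice, which was 41.5 to 58.8 FPKM for Hmgcs1 and 43.9 to 56.0 FPKM for Cyp46a1. The same held for the second pair, with 24.2 to 29.98 FPKM for Srebf2 and 24.5 to 29.7 FPKM for Fdft1. At the low end of the synthesis enzymes stood Tm7sf2 at 3.03 and Lss at 2.83 FPKM. In PS19 mice the mean of Hmgcs1 was 32.6 FPKM and that of Cyp46a1 was 42.7 FPKM.

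The enzymes also varied together among mice of the same group. For each gene the deviation of log2 CPM from its group mean was correlated, over 21 mice, with the mean deviation of the other enzymes. The coefficient r had a median of 0.73 over the 18 enzymes and ran from 0.23 for Lss to 0.95 for Msmo1, while over all 22863 tested genes the median was -0.01 and the 5th and 95th percentiles were -0.50 and 0.48. Srebf2 had an r of 0.86 and Insig1 of 0.79, Srebf1 had -0.32, and Ch25h had -0.62. These are descriptions: the points share libraries, scaling factors and deviations from 6 group means, and depth or tissue composition of single mice enters every gene.

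Within single APOE lines the direction was repeated and the number of calls differed. Of the 30 genes, 26 had the same sign in the 3 lines, 20 lower and 6 higher. The share over all genes was not computed. All 22 genes called in the pooled fit were among the 26. That fit used the same mice, so their shared sign is no separate support. Of the 30 genes, 3 were called in the E2H line, 2 lower and 1 higher, against 0.752% of all genes tested, 0.0825% lower and 0.669% higher. In the E3H line 12 were called, 10 lower and 2 higher, against 5.37% of all genes, 2.02% lower and 3.35% higher. In the E4H line 19 were called, 17 lower and 2 higher, against 15.6% of all genes, 6.98% lower and 8.62% higher. These counts moved with the tool: DESeq2 called 10, 18 and 21 in the E2H, E3H and E4H lines, and edgeR with no filter on low counts called 1, 5 and 17. The shares of all genes called by these 2 alternatives are not given here. Whether the shift was particular to the 30 genes thus cannot be read from these counts. The median log2 difference of the 30 genes was -0.34, -0.33 and -0.36 in the E2H, E3H and E4H lines.

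Idi1, Insig1 and Srebf1 were called in each line. The share of all genes called in each line was not computed. Several of these calls rested on single mice, as 7 fits per line, each without 1 mouse, showed. In the E2H, E3H and E4H lines Idi1 stayed called in 1, 1 and 7 of them. Insig1 stayed called in 4, 4 and 6, and Srebf1 in 3, 1 and 6. Idi1 had log2 fold changes of -0.81 ± 0.15 SE in E2H (adjusted p = 0.0475), -0.62 ± 0.15 in E3H (adjusted p = 0.0438) and -0.73 ± 0.11 in E4H (adjusted p = 0.00264). Insig1 had -0.67 ± 0.10 in E2H (adjusted p = 0.0195), -0.49 ± 0.09 in E3H (adjusted p = 0.0174) and -0.53 ± 0.11 in E4H (adjusted p = 0.00943). Srebf1 had 0.59 ± 0.10 in E2H (adjusted p = 0.0301), 0.52 ± 0.12 in E3H (adjusted p = 0.0336) and 0.72 ± 0.15 in E4H (adjusted p = 0.0101). Acat2, Lss and Mylip were called in the pooled fit and in no single line.

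Hmgcs1 shows how calls and sizes parted. Its log2 fold change was -0.66 ± 0.14 SE in E2H, where it was not called (adjusted p = 0.07), -0.53 ± 0.13 in E3H (adjusted p = 0.0436) and -0.73 ± 0.08 in E4H (adjusted p = 0.000646). Msmo1 had a log2 fold change of -0.76 ± 0.15 in E2H (adjusted p = 0.063), again not called, beside -0.66 ± 0.12 in E3H and -0.71 ± 0.12 in E4H. Ch25h had 1.19 ± 0.74 in E2H (adjusted p = 0.646), 2.58 ± 0.42 in E3H (adjusted p = 0.0109) and 2.26 ± 0.51 in E4H (adjusted p = 0.0157). Cyp46a1, the export enzyme, had -0.06 ± 0.12 in E2H (adjusted p = 0.926), -0.32 ± 0.11 in E3H (adjusted p = 0.128) and -0.33 ± 0.07 in E4H (adjusted p = 0.0104).

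Fdps, Fdft1, Sqle, Cyp51, Sc5d and Srebf2 were called lower in the E3H and E4H lines and not in the E2H line, where they had the same sign. The log2 fold change of Fdps was -0.49 ± 0.10 in E3H (adjusted p = 0.0238), -0.30 ± 0.09 in E4H (adjusted p = 0.0444) and -0.51 ± 0.17 in E2H (adjusted p = 0.268). For Fdft1 it was -0.38 ± 0.09 in E3H (adjusted p = 0.0326), -0.36 ± 0.08 in E4H (adjusted p = 0.0118) and -0.32 ± 0.14 in E2H (adjusted p = 0.443). In Sqle, the epoxidase, the log2 fold change was -0.58 ± 0.10 in E3H (adjusted p = 0.0153), -0.67 ± 0.09 in E4H (adjusted p = 0.00115) and -0.59 ± 0.15 in E2H (adjusted p = 0.127). All 3 genes catalyse steps between farnesyl diphosphate formation and squalene epoxide. For Cyp51 it was -0.48 ± 0.11 in E3H (adjusted p = 0.0388), -0.48 ± 0.08 in E4H (adjusted p = 0.00358) and -0.44 ± 0.13 in E2H (adjusted p = 0.21). For Sc5d it was -0.35 ± 0.08 in E3H (adjusted p = 0.0334), -0.43 ± 0.09 in E4H (adjusted p = 0.0122) and -0.48 ± 0.11 in E2H (adjusted p = 0.09). The log2 fold change of Srebf2 was -0.42 ± 0.10 in E3H (adjusted p = 0.0328), -0.55 ± 0.07 in E4H (adjusted p = 0.00132) and -0.35 ± 0.10 in E2H (adjusted p = 0.197).

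Mvd, Tm7sf2, Nsdhl, Hsd17b7, Dhcr7 and Stard4 were called lower in the E4H line alone, which is not a test of a difference between lines. Mvd had log2 fold changes of -0.47 ± 0.11 in E4H (adjusted p = 0.0225), -0.55 ± 0.15 in E3H and -0.46 ± 0.24 in E2H. Tm7sf2 had -0.54 ± 0.14 in E4H (adjusted p = 0.0246), -0.34 ± 0.13 in E3H and -0.33 ± 0.14 in E2H. Nsdhl had -0.40 ± 0.09 in E4H (adjusted p = 0.0138), -0.36 ± 0.12 in E3H and -0.65 ± 0.15 in E2H. Tm7sf2 and Nsdhl act after lanosterol, and Mvd acts before it. Hsd17b7 had log2 fold changes of -0.44 ± 0.09 in E4H (adjusted p = 0.0129), -0.16 ± 0.09 in E3H and -0.46 ± 0.14 in E2H. Dhcr7 had -0.36 ± 0.09 in E4H (adjusted p = 0.028), -0.41 ± 0.12 in E3H and -0.45 ± 0.15 in E2H. Stard4 had -0.66 ± 0.07 in E4H (adjusted p = 0.000497), -0.47 ± 0.14 in E3H and -0.60 ± 0.15 in E2H. In each of these 6 genes the 3 lines had the same sign.

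The joint test of whether the tau difference depended on the APOE line called 0 of the 30 genes and 0% of all genes tested. At an unadjusted p under 0.05 it picked 0 of the 30, against 7.59% of all genes, and DESeq2 called 0 of the 30 as well. The smallest p of the 30 belonged to Scap (unadjusted p = 0.0595 and adjusted p = 0.671, edgeR). A difference between the lines in the response of these genes was thus not shown by this test.

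The E2H and E3H counts rested on single mice. Without E2H replicate 1, E2H replicate 3 or PS/E2H replicate 1 the E2H line gave 0 calls, and without PS/E2H replicate 3 it gave 1. The E3H line gave 0 calls without E3H replicate 1, 1 without E3H replicate 2 or 3, 4 without PS/E3H replicate 4, and 6 without PS/E3H replicate 2 or 3. The E4H line gave 12 calls without E4H replicate 1 and 8 without E4H replicate 2. The pooled count ran from 22 to 24 whichever of the 21 mice was left out.

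Overlap between the groups of a line was also read. It needs no fitted model but uses the same mice and scaling, so it is not a separate check. In the E2H line 12 of the 30 genes were lower in all PS19 mice than in all parental mice and 1 was higher, against 5.22% and 6.47% of all genes tested. The E3H line gave 16 lower and 4 higher, against 8.37% and 10.9%. The E4H line gave 19 lower and 4 higher, against 14.5% and 14.2%. Hmgcs1, Idi1, Sqle, Msmo1, Nsdhl, Sc5d, Insig1, Srebf2 and Stard4 separated the groups downward in each line, and Srebf1 did so upward.

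APOE genotype was compared next, first pooled over tau status. Each genotype was kept as its own line. The paper reports that PS/E3H mice reached paralysis later than PS/E2H and PS/E4H mice. Females were in E4H, PS/E2H and PS/E4H and in no other group. APOE isoform and line thus cannot be told apart in any of these comparisons. Where PS19 mice enter, age at paralysis cannot be told apart from them either. The same holds for sex, except between E2H and E3H, which held males only. Tissue markers, described below, also differed: oligodendrocyte, precursor, endothelial and pituitary sums did not overlap between E2H and E3H. These sums overlapped between PS/E2H and PS/E3H. The part of tissue composition in the values below was not tested. APOE2 against APOE3 called 2 of the 30 genes, Pmvk higher and Hsd17b7 lower, against 3.31% of all genes tested, 2.2% higher and 1.11% lower. Pmvk measured 32.7, 42.7 and 33.7 CPM in E2H and 27.8, 28.5 and 28.1 CPM in E3H. With the transgene it measured 32.7, 41.8, 32.3 and 33.4 CPM in PS/E2H and 27.8, 25.5, 28.4 and 27.2 CPM in PS/E3H. APOE2 mice lay above APOE3 mice without overlap in both settings, and replicate 2 was the highest of both APOE2 groups. Between E2H and E3H 4 of the 30 genes were higher without overlap and 3 lower. Between PS/E2H and PS/E3H 1 was higher and 2 were lower. The share of all genes separated in APOE comparisons is not given here. The same mice gave the calls, so such a separation is no added support. Pmvk had a log2 fold change of 0.38 ± 0.07 SE (adjusted p = 0.0111).

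Hsd17b7 measured 21.3, 19.4 and 23.4 CPM in E2H against 24.5, 24.3 and 26.8 CPM in E3H, and 16.1, 13.5, 19.1 and 13.7 CPM in PS/E2H against 25.0, 23.5, 22.7 and 20.02 CPM in PS/E3H. Here APOE2 mice lay below APOE3 mice in both settings. Its log2 fold change was -0.40 ± 0.08 SE (adjusted p = 0.0156). Both calls held whichever of the 21 mice was left out. The other 28 genes were not called, with Lss the next by p (log2 fold change -0.25 ± 0.08, adjusted p = 0.0801).

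**Figure D4:**
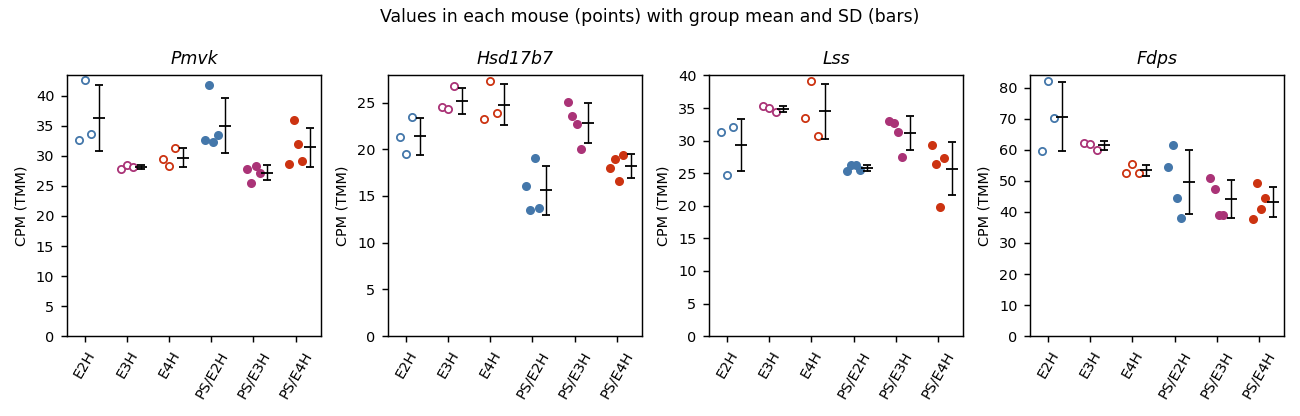
CPM of Pmvk, Hsd17b7, Lss and Fdps in each mouse by group, with the group mean and SD beside the points and each axis starting at 0. Pmvk is higher and Hsd17b7 lower in E2H and PS/E2H than in E3H and PS/E3H, and Fdps is lower in each PS19 group than in its parental group on average.

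The other APOE comparisons called 0 of the 30 genes with edgeR. APOE4 against APOE3, pooled over tau, called 0.122% of all genes, and at an unadjusted p under 0.05 it picked 2 of the 30 against 5.77% of all genes. Hsd17b7 had the smallest p there (log2 fold change -0.19 ± 0.08 SE, adjusted p = 0.836). APOE4 against APOE2 called 0.634% of all genes and picked 8 of the 30 at an unadjusted p under 0.05 against 16.5% of all genes, with Fdps first (log2 fold change -0.30 ± 0.10, adjusted p = 0.143). DESeq2 called 0 of the 30 in both of these comparisons and 3 in APOE2 against APOE3, where it added Lss to Pmvk and Hsd17b7.

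Among parental mice alone the pattern was similar. E2H against E3H called 0.178% of all genes, and 6 of the 30 had an unadjusted p under 0.05 against 14.1% of all genes, led by Pmvk (log2 fold change 0.37 ± 0.11 SE, adjusted p = 0.253). E4H against E3H called 0.162%, and 1 of the 30, Fdps, had an unadjusted p under 0.05 against 6.67% (log2 fold change -0.21 ± 0.06, adjusted p = 0.422). E4H against E2H called 0.216%, and 4 of the 30 had an unadjusted p under 0.05 against 12.4%, again led by Fdps (log2 fold change -0.41 ± 0.12, adjusted p = 0.346). Fdps measured 59.7, 82.0 and 70.2 CPM in E2H, 62.3, 62.0 and 59.9 CPM in E3H, and 52.4, 55.3 and 52.5 CPM in E4H, so every E4H mouse lay below every other parental mouse. Without overlap, 3 of the 30 genes were lower in E4H than in E3H and 0 higher. Against E2H 4 were lower and 2 higher in E4H. The share over all genes is not given here. DESeq2 called 0 of the 30 in these 3 comparisons.

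Among PS19 mice, PS/E2H against PS/E3H called 0.113% of all genes, and 4 of the 30 had an unadjusted p under 0.05 against 11.7%, led by Hsd17b7 (log2 fold change -0.54 ± 0.13 SE, adjusted p = 0.307). DESeq2 called 1 of the 30 there, Hsd17b7. PS/E4H against PS/E3H called 0.0197%, and 3 of the 30 had an unadjusted p under 0.05 against 6.51%, again led by Hsd17b7 (log2 fold change -0.32 ± 0.09, adjusted p = 0.758). PS/E4H against PS/E2H called 0.119%, and 3 of the 30 had an unadjusted p under 0.05 against 12.3%, led by Cyp46a1 (log2 fold change -0.30 ± 0.09, adjusted p = 0.299). DESeq2 called 0 of the 30 in the last 2 comparisons. These comparisons share groups with one another and with the pooled fits, so their values are not independent.

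LXR targets beyond the receptors were read from a list of 9, again in the pooled tau comparison. Of these, 6 were higher and 1 was lower, against 11.4% and 9.63% of all genes tested. Srebf1 and Mylip, counted above, are in this list too. Abca1, which exports cholesterol to lipoproteins, had a log2 fold change of 1.36 ± 0.16 SE (adjusted p = 1.53e-06), Arl4c had 0.25 ± 0.05 (adjusted p = 0.000433), and Abcg1, a second exporter, had 0.18 ± 0.04 (adjusted p = 0.00303). The lower gene was Abcg4, a transporter of the same family, with -0.19 ± 0.04 (adjusted p = 0.00385). Of 4 genes of the oxysterol and bile acid route, Hsd3b7 had 0.50 ± 0.12 (adjusted p = 0.004) and Cyp39a1 had 0.34 ± 0.10 (adjusted p = 0.0212), and both were higher.

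Cell type markers moved in the same comparison, in which 11.4% of all genes tested were called higher and 9.63% lower. Of 10 microglial markers 9 were higher, and their summed level ran from 467 to 627 CPM in parental and from 773 to 1439 CPM in PS19 mice. All 8 astrocyte markers were higher, with summed levels of 2681 to 3264 CPM and 4092 to 6192 CPM. Of 8 oligodendrocyte markers 5 were higher, with summed levels of 4930 to 7141 CPM and 6167 to 9389 CPM that overlapped. In the E2H line alone 0 of these 8 were called with edgeR, where 0.752% of all genes tested were called. There 1 of the 8 had an unadjusted p under 0.05, and their median log2 difference was -0.04. The parental lines differed, with oligodendrocyte sums of 6562 to 7141 CPM in E2H, 4930 to 5405 in E3H and 5367 to 6427 in E4H. The PS19 sums were 6167 to 7545 CPM in PS/E2H, 6603 to 7049 in PS/E3H and 7353 to 9389 in PS/E4H. In the E2H line 4 of 10 microglial and 1 of 8 astrocyte markers were higher. Of the oligodendrocyte markers 7 of 8 were higher in each of the E3H and E4H lines, against 3.35% and 8.62% of all genes. Of 8 neuronal markers 4 were lower and 2, the GABA-synthesis genes Gad1 and Gad2, were higher, with summed levels of 6318 to 6873 CPM and 5513 to 6832 CPM. No defining marker of these 4 cell types was at 0.

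Smaller cell classes were read in the same way, beside the same shares of 11.4% higher and 9.63% lower over all genes tested. A single call among 3 or 4 markers does not show a shift of a cell class. Of 3 oligodendrocyte precursor markers 1 was higher, with summed levels of 84.5 to 111 CPM in parental and 96.8 to 124 CPM in PS19 mice. Endothelial markers gave 1 of 4 higher, with 83.1 to 116 CPM and 78.4 to 120 CPM. Choroid plexus markers gave 1 of 4 higher, with 439 to 757 CPM and 413 to 1200 CPM. Blood markers gave 0 of 4 called, all 4 with an unadjusted p under 0.05 and a median log2 difference of -0.97, with 156 to 619 CPM and 22.8 to 311 CPM. Pituitary markers gave 1 of 3 tested lower, at 1.22 to 10.1 CPM and 0.761 to 4.81 CPM. Among all these markers, the pituitary genes Prl, Gh and Lhb were the ones with a count of 0 in at least 1 mouse. The synthesis enzymes were thus lower in samples in which markers of astrocytes and, in part, of oligodendrocytes were higher. In the same samples 4 of 8 neuronal markers were lower and 2 higher, and the neuronal gene Cyp46a1 was lower. Ch25h and most microglial markers were both higher in the pooled comparison. Not every mouse followed the pattern of Ch25h and microglia: PS/E2H replicate 4, with the highest Ch25h at 4.04 CPM, had the lowest microglial sum of the PS19 mice at 773 CPM. The part that these shifts have in the sterol values was not tested.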

How the data were processed

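Stranded poly(A) libraries from frozen forebrain were sequenced as paired reads, 3 or 4 mice in each of 6 groups. Per the labels and methods, the authors trimmed reads with Cutadapt, aligned them with HISAT2 to GRCm38.p5, and assembled and quantified them with StringTie, gffcompare and ballgown, in versions not given in the sources used here. The deposited counts per gene were whole numbers without normalization, and how the authors derived them is not given in the sources used here. The deposited FPKM values were normalized by the authors to length and depth.

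From the counts, all genes were fitted with edgeR 4.0.16 in R 4.3.3 (TMM, filterByExpr with a minimum count of 10 and total of 15, quasi-likelihood test, Benjamini-Hochberg over all genes tested, called at 0.05). The pooled fits took APOE line and tau as additive terms over 21 mice. Each pair of groups was fitted on its own mice. FPKM served for levels between genes and for limma 3.58.1 on log2(FPKM + 1) and log2(FPKM + 0.1), and log2 fold changes of the deposited counts were computed by edgeR. DESeq2 1.42.0, edgeR with RLE size factors, no filter, a replicate block and leaving out each mouse were the other alternatives. The fitting script was tested on simulated data.

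The genes, lists and tests were chosen with earlier results of these data known. Fold changes are given for every one of the 30 genes called in a comparison, for the smallest p where none was, and for up to 4 genes of each other list with the smallest adjusted p. Abcg4, Lss in APOE2 against APOE3 and the contrast of Hmgcs1, Msmo1, Ch25h and Cyp46a1 over lines, were picked after their values were seen. The lists of other sterol synthesis genes and of fatty acid and uptake targets of SREBPs are not reported here. No column was left unmapped (0). Replicates are labelled as separate mice, and none were alike within counting noise. Gene positions and exons come from GENCODE M21, and gene symbols matched 55141 of 55401 identifiers.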

Additional observations from a re-analysis of the deposited data

Results flagged for a closer look

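Of 90 tests for a single mouse far from the other 3 of its PS19 group, 5 were positive, and chance gives about 1 in 20. Pmvk in PS/E2H replicate 2 was high at 41.8 CPM, beside 32.3 to 33.4 CPM in the other mice. Idi1 in PS/E2H replicate 4 was low at 16.7 CPM, beside 25.3 to 26.5 CPM. Ebp in PS/E4H replicate 1 was low at 14.1 CPM, beside 18.8 to 19.6 CPM. Soat1 in PS/E3H replicate 1 was low at 36.4 CPM, beside 46.2 to 46.4 CPM. Mylip in PS/E3H replicate 4 was high at 19.1 CPM, beside 15.7 to 16.0 CPM.

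Scap was marked because its tau difference pointed up in the E2H line (log2 fold change 0.11 ± 0.10 SE) and down in the E3H line (-0.11 ± 0.07) and the E4H line (-0.13 ± 0.06). None of these differences was called. The joint interaction test over all 21 mice in edgeR gave an adjusted p of 0.671.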

How the results depend on the processing

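Tools, filters and scaling left the pooled tau count at 22 or 23 of 30 genes and the pooled APOE2 against APOE3 count at 2 or 3. No alternative reversed a direction of a called gene, and RLE size factors in edgeR called 23 genes in the pooled tau comparison. In the E2H line the count of 3 became 10 with DESeq2, 1 with no filter on low counts and 5 with the replicate block. In the E3H line the count of 12 became 5 with no filter, 7 with limma on log2(FPKM + 1) and 5 with the replicate block. DESeq2 called 1 gene in PS/E2H against PS/E3H, where edgeR called 0. The shares of all genes called under the alternative settings are not given here, and the causes were not tested.

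Leaving out 1 mouse gave 22 to 24 genes in the pooled tau comparison, 0 to 3 in the E2H line, 0 to 16 in the E3H line, 8 to 18 in the E4H line and 2 to 3 in pooled APOE2 against APOE3. The count was 0 in every such fit of the other comparisons.

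Replicate numbers showed no general pairing of mice. Of 30 same-numbered pairs, 4 had a correlation of deviations over 0.1, 7 correlated best with their own number, and the values ran from -0.25 to 0.30. In the tau comparisons of E2H and E3H, replicates 2 and 3 did correlate best with their own number. The values were 0.30 and 0.21 in E2H, and 0.12 and 0.06 in E3H. Replicate 1 of these lines and all pairs of E4H did not. With the replicate block the pooled tau count was 22 and the E4H count 13.

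With 3 parental mice a group, the calls within lines are the least certain values. At 8 to 242 counts a mouse, Ch25h is the least precise level, and its log2 fold change was 0.58 with limma on log2(FPKM + 1) against 1.97 in edgeR.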
